A study of Mus musculus with 14 samples.

Results

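The genes described here lie on mouse chromosome 17, on both sides of and within the major histocompatibility complex (MHC). They are the rows of the table of normalised counts with a start from 20000000 to below 50000000 in the genome build mm39 and a mean of at least 10 over all libraries. The MHC genes themselves (symbols starting with H2-, and Tap1, Tap2 and Tapbp) and the families starting with Rpl, Rps, Mrpl, Mrps, Nduf and Psm were left out by the rule. This gave 426 genes of 18355 in the table and of 15565 that reached the mean of 10. The region holds 567 rows, of which 98 were under that mean and 43 were left out by name. Just inside the limit lay Ip6k3 at a mean of 10.9, Lst1 at 11.1 and Rnf39 at 11.1, and just outside it Gm6623 at 9.92, Ephx3 at 9.58 and 9330136K24Rik at 9.57. The first gene in order is Ppp2r1a, which encodes a scaffold subunit of protein phosphatase 2A, and the last is Kif6, a kinesin. The members were chosen by position and by this mean normalised count, with no use of a difference between groups, but the stretch of chromosome was proposed with results of these data in view.

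The study sequenced RNA of cells sorted from the brain at postnatal day 8, to ask how loss of the lysolipid transporter Mfsd2a alters oligodendrocyte precursors and their progeny. The sort used magnetic beads, either by CD140a, the Pdgfra receptor of oligodendrocyte precursor cells (OPCs), or by O4, an antigen of immature oligodendrocytes. Each sort had 3 libraries of 2afl/fl mice, whose Mfsd2a alleles are flanked by loxP sites, and 4 of 2aOKO mice, which carry the same floxed alleles together with a Pdgfra-cre transgene that deletes them in OPCs and the cells that descend from them. All 4 groups thus share the floxed allele, the age and an input of 900 ng of RNA, while the 2afl/fl mice were not described as carrying Cre. Libraries are named by genotype, sort and number, and nothing in the labels says that a number marks 1 animal.

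The MHC stretch of chromosome 17 is among the most gene-dense and most polymorphic parts of the mouse genome, and inbred strains carry different haplotypes of it. Between the class I and class II genes lies the class III stretch, with complement components, the tumour necrosis factor cluster and the inducible Hsp70 genes. The myelin gene Mog sits at the far end of the class I genes, clusters of zinc finger genes lie before the MHC, and lysosomal, cell cycle and signalling genes with no immune role surround it.

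The sequences given first belong to the members on which the results turn. Promoters are from RefSeq (build GRCm38.p6, an earlier build than that of the counts), 250 bases before to 50 after the start of the gene, 5′ to 3′ on the strand of the gene. A promoter was found for 353 of the 426 members. Capitals mark matches on either strand to GAANNTTC (part of a heat shock element), TGACGT (the core of a cyclic AMP response element) or CTGGNAC (a motif of the myelin regulator Myrf). Mog is shown for the highest fold change between the sorts, on the minus strand at chr17:37023349-37023648, with the Myrf motif and the TGACGT core. The paralogues Hspa1a (minus strand, chr17:34972107-34972406) and Hspa1b (minus strand, chr17:34959189-34959488) varied together. Their promoters matched at 296 of 300 positions, and both hold 1 match to GAANNTTC, which is not a count of whole heat shock elements. Dusp1 (minus strand, chr17:26508423-26508722) is shown for the early response genes. Its second stretch in capitals is this core read from both strands.
Mog: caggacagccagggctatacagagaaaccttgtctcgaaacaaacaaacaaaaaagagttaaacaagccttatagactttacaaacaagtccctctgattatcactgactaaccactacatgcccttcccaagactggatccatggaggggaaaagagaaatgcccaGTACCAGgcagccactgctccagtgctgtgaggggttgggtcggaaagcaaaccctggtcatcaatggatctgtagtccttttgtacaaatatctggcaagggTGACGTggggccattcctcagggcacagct
Hspa1a: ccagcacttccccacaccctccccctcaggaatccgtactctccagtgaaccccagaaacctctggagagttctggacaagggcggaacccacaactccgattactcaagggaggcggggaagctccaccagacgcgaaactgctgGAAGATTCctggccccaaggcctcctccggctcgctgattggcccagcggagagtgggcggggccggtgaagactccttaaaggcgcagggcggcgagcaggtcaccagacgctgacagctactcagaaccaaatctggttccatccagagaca
Hspa1b: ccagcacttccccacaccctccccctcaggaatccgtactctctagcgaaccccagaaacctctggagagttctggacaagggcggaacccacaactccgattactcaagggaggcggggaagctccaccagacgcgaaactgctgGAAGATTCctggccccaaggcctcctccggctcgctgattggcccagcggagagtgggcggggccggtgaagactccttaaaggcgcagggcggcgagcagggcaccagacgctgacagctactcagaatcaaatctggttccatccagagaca
Dusp1: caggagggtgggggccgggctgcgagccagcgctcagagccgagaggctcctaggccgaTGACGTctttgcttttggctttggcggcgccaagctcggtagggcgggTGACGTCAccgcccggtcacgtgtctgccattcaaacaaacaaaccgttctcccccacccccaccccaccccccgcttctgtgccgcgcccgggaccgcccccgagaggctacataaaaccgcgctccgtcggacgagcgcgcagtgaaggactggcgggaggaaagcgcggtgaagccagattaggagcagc

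Of all 27025 promoters of this length, 7.95% held GAANNTTC, 7.65% the TGACGT core and 19.2% the Myrf motif. Of the promoters of members, 5.1%, 13.9% and 19.5% did. A match describes the letters only.

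Several members have a near-identical copy elsewhere, which matters where reads fit more than one gene. How such reads were assigned is not given in the sources used here. Atp6v0c, the proteolipid subunit of the V-type proton pump, has the pseudogene Atp6v0c-ps2 on chromosome 6. Over 387 aligned bases of their GENCODE transcripts (release M21, build GRCm38) they differed at 1 base, which is in capitals in the 41 bases around it.
Atp6v0c: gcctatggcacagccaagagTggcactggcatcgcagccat
Atp6v0c-ps2: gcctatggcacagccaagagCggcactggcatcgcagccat

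Among the 410 members with a transcript in that release, 21 had a copy of at least 95% identity over at least 200 bases that did not overlap them. Hmga1, an architectural chromatin protein, and Hmga1b on chromosome 11 were 99.8% identical over 1538 bases. Hspa1a and Hspa1b were 99.2% identical, the kinesins Kifc1 and Kifc5b 96.8%, the complement genes C4a and C4b 96.0%, and the zinc finger genes Zfp955a and Zfp955b 98.4%. Values of these genes are uncertain to the extent that reads could not be assigned. Besides, 98 members overlap another gene, 89 of them on the opposite strand, and the strand setting of the counting is not given in the sources used here.

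The libraries held normalised totals of 34120823 to 41030171, of which the 426 members made up 2.28% to 2.5%. A mean under 50 was found for 49 members, one from 50 to below 1000 for 187 and one from 1000 for 190. All but 8 were above 0 in every library, as 418 were. Markers fitted the sorts. The summed level of 6 OPC markers ran from 676714 to 811444 in OPC libraries and from 340355 to 575922 in O4 libraries. That of 8 markers of immature and myelinating oligodendrocytes ran from 19791 to 29802 in OPC and from 347000 to 1364244 in O4 libraries. The 2afl/fl O4 library 2 held the highest OPC sum and the lowest oligodendrocyte sum of the O4 sort, so values that it moved by a large part are also given without it. In both sorts the libraries also held RNA of other cells. Sums of 9 microglia markers were 3127 to 4999 in OPC and 7406 to 12239 in O4 libraries, and those of 8 endothelial markers 19065 to 33237 and 17501 to 40781.

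All calls among the members were between the sorts. In 2afl/fl mice 71 members were higher and 34 lower in O4 cells than in OPCs at an adjusted p under 0.05 (limma on log2(normalised count + 1), Benjamini-Hochberg over all genes tested). These 105 calls are 24.6% of the members, against 26.5% of all genes tested. In 2aOKO mice 83 were higher and 43 lower, 29.6% of the members against 33.1% of all genes. The members were thus called no more often than other genes. Both genotypes called 63 members higher and 28 lower, and no member was called in opposite directions. These 63 are 88.7% of the higher calls in 2afl/fl and 75.9% of those in 2aOKO mice. The overlap was taken for the members alone. Without the shares over all genes, it cannot be read as a trait of these members.

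More of the calls were higher than lower, but this split depended on the scaling. Rescaling all libraries to the same total moved the median of all genes in the sort comparisons by -0.11 on the log2 scale in 2afl/fl and by -0.12 in 2aOKO mice. The split was then 50 higher and 59 lower in 2afl/fl, and 55 higher and 80 lower in 2aOKO mice. After quantile normalisation it was 60 to 48 and 68 to 61. The count in 2afl/fl mice also rested on single libraries. It was 69 without OPC library 1 (16.2% of the members against 19.8% of all genes) and 69 without OPC library 2 (16.2% against 20.2%). Without O4 library 1 it was 50 (11.7% against 15.9%), without O4 library 3 it was 60 (14.1% against 17.5%), and without O4 library 2 it was 142 (33.3% against 37.8%). A fit to the 6 libraries of that comparison alone gave 17 (3.99% against 5.45%), and the corresponding fit in 2aOKO mice gave 153 (35.9% against 41.3%). Each of these shares lay below that of all genes in the same fit.

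**Figure D1:**
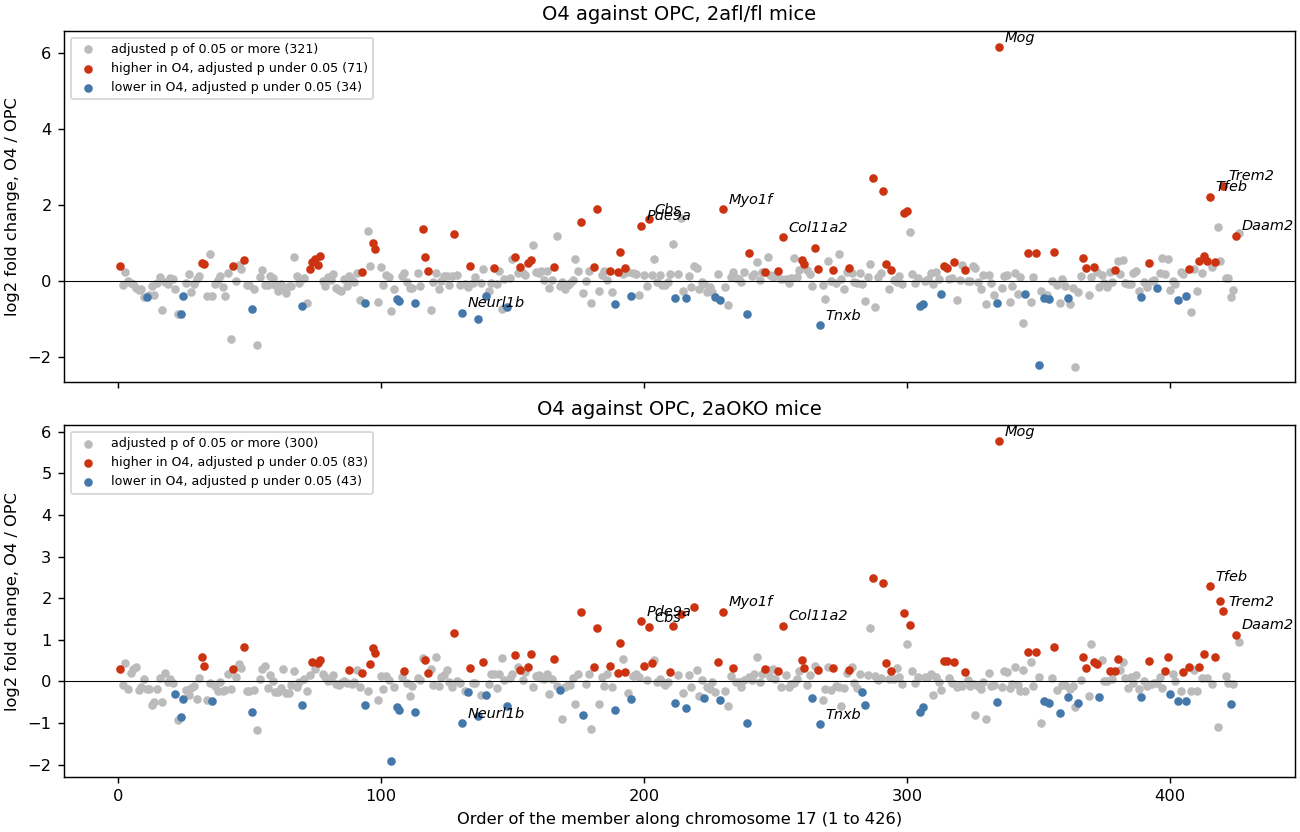
Log2 fold change of O4 over OPC for each of the 426 members (points) in their order along chromosome 17, in 2afl/fl (top) and 2aOKO mice (bottom). Called members lie along the whole stretch, with Mog highest at 6.16 and 5.77.

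Mog, myelin oligodendrocyte glycoprotein of the outer myelin sheath (minus strand, chr17:37321632-37334291), led the members in both genotypes. Its normalised counts were 27.4, 23.7 and 16.9 in 2afl/fl OPC libraries and 1906, 732 and 3295 in O4 libraries. In 2aOKO mice they were 25.6, 15.4, 45.6 and 23.8 in OPC and 1751, 1141, 1982 and 1118 in O4 libraries. The sorts did not overlap, and the 2afl/fl O4 library 2 was the lowest of the O4 sort. The log2 fold change was 6.16 ± 0.46 (SE, adjusted p = 1.09e-06) in 2afl/fl and 5.77 ± 0.40 (adjusted p = 2.11e-07) in 2aOKO mice. Without that library it was 6.75 in 2afl/fl mice. In sorted bulk samples, fewer cells of a type and less RNA per cell cannot be told apart.

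Of 18 members in a list of myelin and lineage genes, 6 were higher and 2 lower in O4 cells of 2afl/fl mice, and 7 and 2 in 2aOKO mice. These calls are 44.4% and 50% of the list, against 26.5% and 33.1% of all genes. The median log2 fold change of the list was 0.23 and 0.14, beside -0.01 and -0.02 over all genes. This and the other role lists were chosen with earlier results of these data known, so their shares are descriptions and not tests. Some members, such as Tfeb, are on several lists. Tfeb, a transcription factor of lysosomal genes and a known brake on myelination (plus strand, chr17:48047962-48103342), had 587, 409 and 397 in 2afl/fl OPC and 2942, 1141 and 2900 in O4 libraries. In 2aOKO mice it had 477 to 537 in OPC and 1896 to 3330 in O4 libraries, again with no overlap of the sorts. It rose by 2.22 ± 0.29 (adjusted p = 0.000135) and 2.29 ± 0.25 (adjusted p = 1.61e-05) on the log2 scale. Daam2, a formin of the Wnt pathway that holds back oligodendrocyte differentiation in mice, rose by 1.19 ± 0.17 and 1.12 ± 0.15. Tnfrsf21, the death receptor DR6, rose by 0.74 ± 0.12 and 0.70 ± 0.10, from 5689 to 6688 in OPC to 8580 to 12634 in O4 libraries over both genotypes. Sox8, a transcription factor of the lineage, was at 13476 to 19796 in OPC and 16987 to 26219 in O4 libraries, which overlap. It passed the test in 2aOKO mice, at 0.41 ± 0.13 (adjusted p = 0.0287), and not in 2afl/fl mice, at 0.40 ± 0.16 (adjusted p = 0.0735), where pairing the libraries by number gave an adjusted p of 0.00247 (limma). In 2afl/fl mice it also passed without O4 library 2 (0.54, adjusted p = 0.0116) or OPC library 3 (0.56, adjusted p = 0.024). A difference between the genotypes was not found (0.02 ± 0.21, adjusted p = 1). The call in 2aOKO mice was lost after quantile normalisation (0.20, adjusted p = 0.131), and without OPC library 1 (adjusted p = 0.0887) or 2 (0.0609) or O4 library 2 (0.0627) or 3 (0.0908). Ptk7, a receptor of planar cell polarity, fell by 0.43 and 0.37. Without 2afl/fl O4 library 2 the 2afl/fl values were 2.67 for Tfeb, 1.34 for Daam2 and 0.87 for Tnfrsf21.

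Outside that list Pde9a, a phosphodiesterase of cyclic GMP, rose by 1.46 ± 0.17 and 1.45 ± 0.15, and Col11a2, a fibrillar collagen chain, by 1.15 ± 0.21 and 1.33 ± 0.19. Pde9a was at 468 to 623 in all OPC and 1057 to 2006 in all O4 libraries. Col11a2 was at 3945 to 5982 in OPC and 6795 to 14612 in O4 libraries, with the 2afl/fl O4 library 2 as the lowest. Both sorts were separate for each gene. Btbd9, a BTB domain protein, rose by 0.77 ± 0.14 and 0.92 ± 0.12, and Anks1, an ankyrin repeat adaptor, by 0.54 ± 0.11 and 0.66 ± 0.10. Without 2afl/fl O4 library 2 the 2afl/fl values were 1.69 for Pde9a, 1.47 for Col11a2 and 0.96 for Btbd9. Cbs, which condenses homocysteine with serine, was at 74.8 to 135 in OPC and 201 to 432 in O4 libraries and rose by 1.63 ± 0.25 and 1.30 ± 0.22.

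Members known from microglia rose in the O4 sort too. Trem2, a microglial receptor for lipids, had 57.7, 41.9 and 23.2 in 2afl/fl OPC and 263, 288 and 146 in O4 libraries. In 2aOKO mice it had 54.8 to 79.6 in OPC and 116 to 273 in O4 libraries. All O4 libraries were above all OPC libraries, by 2.51 ± 0.37 (adjusted p = 0.000378) and 1.68 ± 0.32 (adjusted p = 0.00131). Myo1f, a myosin of leukocytes, rose by 1.89 ± 0.27 and 1.68 ± 0.23, and Fgd2, an exchange factor for Cdc42, by 1.89 ± 0.31 and 1.29 ± 0.27. Aif1, which encodes the microglial marker Iba1, rose by 1.78 ± 0.43 and 1.65 ± 0.37. The summed microglia markers were higher in every O4 than in every OPC library, as given above. Within the groups, deviations from the group means over 14 libraries, which share the cells of each sort, had an r with that sum of 0.84 for Trem2, 0.89 for Fgd2, 0.80 for Aif1 and 0.58 for Myo1f. Over the 18 members of the immune list described next, r ran from -0.01 for Lst1 to 0.89 for Fgd2. The part of the microglial RNA in these calls was not tested. In the list of 18 complement, cytokine and immune genes, 5 were higher and none lower in each genotype, with a median of 0.22 and 0.08. These 5 are 27.8% of the list, against 26.5% and 33.1% of all genes.

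Of 11 members in the list of the proton pump and lysosome, 5 were higher and 0 lower in each genotype, with medians of 0.25 and 0.24. These are 45.5% of the list, against 26.5% and 33.1% of all genes. Besides Tfeb they include Tbc1d24, a TBC domain protein of vesicle traffic, at 0.55 ± 0.14 and 0.83 ± 0.12, although its value in 2afl/fl mice was 0.33 without O4 library 3. Neu1, the lysosomal sialidase, was at 1018 to 1158 in OPC and 1199 to 1482 in O4 libraries. It rose by 0.35 ± 0.09 (adjusted p = 0.013) and 0.28 ± 0.08 (adjusted p = 0.0158). After rescaling to equal totals this call was lost in both genotypes (0.24 and 0.16, adjusted p = 0.0711 and 0.142). In 2afl/fl mice it was also lost without O4 library 1 (adjusted p = 0.0561), and in 2aOKO mice without OPC library 1 (0.0509) or O4 library 3 (0.0599). Clcn7, the lysosomal chloride and proton exchanger, was at 2128 to 2536 in OPC and 1906 to 2412 in O4 libraries, a difference of -0.13 ± 0.09 and -0.04 ± 0.08 that did not pass the test. Without 2afl/fl O4 library 2 the first was -0.22 and did not pass either (adjusted p = 0.0529).

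Among 19 members of lipid handling, 6 were higher and 1 lower in each genotype, 36.8% of the list against 26.5% and 33.1% of all genes. Enpp4, a cell surface enzyme of the ectonucleotide pyrophosphatase family, rose by 0.75 ± 0.15 and 0.83 ± 0.13. Agpat1, which makes phosphatidic acid from lysophosphatidic acid, was at 2898 to 3443 in OPC and 3616 to 4748 in O4 libraries. It rose by 0.45 ± 0.11 and 0.33 ± 0.09, and the second value was 0.21 after rescaling to equal totals. The call in 2aOKO mice was lost without O4 library 3 (0.25, adjusted p = 0.0515). The lower one was Abcg1, an exporter of cholesterol, at -0.40 ± 0.13 (adjusted p = 0.0308) and -0.43 ± 0.11 (adjusted p = 0.00793). Its call in 2afl/fl mice was lost without any 1 of the 6 libraries of that comparison but O4 library 2, and the value was -0.25 without O4 library 3.

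Of 20 members in the cell cycle list, none was higher and 5 were lower in each genotype, with medians of -0.15 and -0.10. As a share this is below the 26.5% and 33.1% of all genes that were called. Ccnd3, cyclin D3, was at 4260 to 4700 in OPC and 2741 to 4032 in O4 libraries and fell by 0.39 ± 0.11 and 0.48 ± 0.09, with -0.23 in 2afl/fl mice without O4 library 3. Kifc1, a motor of the mitotic spindle, had 1588 to 1853 in OPC and 586 to 1408 in O4 libraries. It fell by 0.87 ± 0.22 and 1.0 ± 0.19, and the first value was -0.56 without O4 library 3. Its copy Kifc5b fell by 0.99 ± 0.19 and 0.84 ± 0.17. The reads of this pair may be split between them.

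In the list of synapse and excitability genes, 2 of 18 were higher and 5 lower in 2afl/fl, and 2 and 6 in 2aOKO mice, 38.9% and 44.4% of the list against 26.5% and 33.1% of all genes. Mdga1, an adhesion molecule that binds neuroligins, fell by 0.60 ± 0.14 and 0.68 ± 0.12, and Syngr3, a synaptic vesicle protein, by 0.65 ± 0.16 and 0.57 ± 0.14. Outside the list, Metrn, a secreted glial differentiation factor, was at 5158 to 6487 in OPC and 3295 to 5410 in O4 libraries and fell by 0.48 ± 0.11 and 0.62 ± 0.10. Fbxl16, an F-box protein, fell by 0.52 ± 0.11 and 0.69 ± 0.09, Neurl1b, a ubiquitin ligase of Notch ligands, by 0.84 ± 0.20 and 1.01 ± 0.17, and Adamts10, a protease of microfibrils, by 0.49 ± 0.11 and 0.45 ± 0.09. Tnxb, a tenascin of connective tissue, fell by 1.17 ± 0.28 and 1.03 ± 0.24. Summed markers of fibroblasts were 22429 to 38196 in OPC and 7547 to 16105 in O4 libraries, and their part in the value of Tnxb was not tested.

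Of the 44 zinc finger members, 0 were higher and 5 lower in 2afl/fl, and 1 and 5 in 2aOKO mice. These are 11.4% and 13.6% of the list, below the 26.5% and 33.1% of all genes. The median was -0.146 and -0.155, and 9 and 12 of the 44 were above 0. Zfp57, which protects imprinted methylation in early embryos, fell by 0.59 ± 0.13 and 0.50 ± 0.11. Among 10 chaperone members, Hsp90ab1, the constitutive cytosolic Hsp90 and the most abundant of the genes named here, was at 49230 to 52843 in OPC and 55175 to 72992 in O4 libraries. It rose by 0.33 ± 0.11 (adjusted p = 0.0351) and 0.32 ± 0.09 (adjusted p = 0.0178), but was at 0.07 (adjusted p = 0.502) and 0.08 (adjusted p = 0.383) after quantile normalisation. In 2afl/fl mice the call was also lost after rescaling to equal totals (0.22, adjusted p = 0.0616), and without any 1 of the 6 libraries except O4 library 2, with the lowest value of 0.26 without O4 library 1. In 2aOKO mice it was lost without OPC library 4 (adjusted p = 0.0501) or O4 library 3 (0.0601), and rescaling gave 0.20. Of 23 chromatin and transcription members 3 were higher and 1 lower in 2afl/fl, and 5 and 2 in 2aOKO mice. Of 8 members of the mTORC1 and TSC pathway 1 was higher and 0 lower, and 1 and 1. Of 12 blood vessel members 0 were higher and 2 lower, and 1 and 2. Of 13 early and stress response members 1 was higher and 0 lower, and 2 and 0. In each of these last 4 lists the share called was below that of all genes in both genotypes.

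Between the genotypes no member passed the adjusted threshold in OPCs, in O4 cells, over both sorts or in the difference between sorts. No gene of the whole table did either, so the background is 0.0% in each of these 4 tests. At an unadjusted p under 0.05 there were 11 members in OPCs, 2.58% of them against 1.61% of all genes. In O4 cells there were 23, 5.4% against 2.89%, and over both sorts 40, 9.39% against 4.17%. The fit over both sorts took same-numbered OPC and O4 libraries as separate, although they deviated together. Its SEs and p-values are thus likely too small, for members and all genes alike. For the difference of the genotype effect between sorts there were 3, 0.704% against 0.848%. The study used looser limits with DESeq2, a log2 fold change of 0.32 or more in size and an unadjusted p under 0.05. In the limma fit used here, 10 members passed these limits in OPCs (2.35% against 1.05% of all genes) and 12 in O4 cells (2.82% against 1.59%). These are not all the members that the study lists. Of the 10 it lists in OPCs 8 passed here, and of the 11 in O4 cells 7. The median of the members was -0.002 in OPCs and -0.017 in O4 cells, beside -0.002 and -0.002 over all genes.

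**Figure D2:**
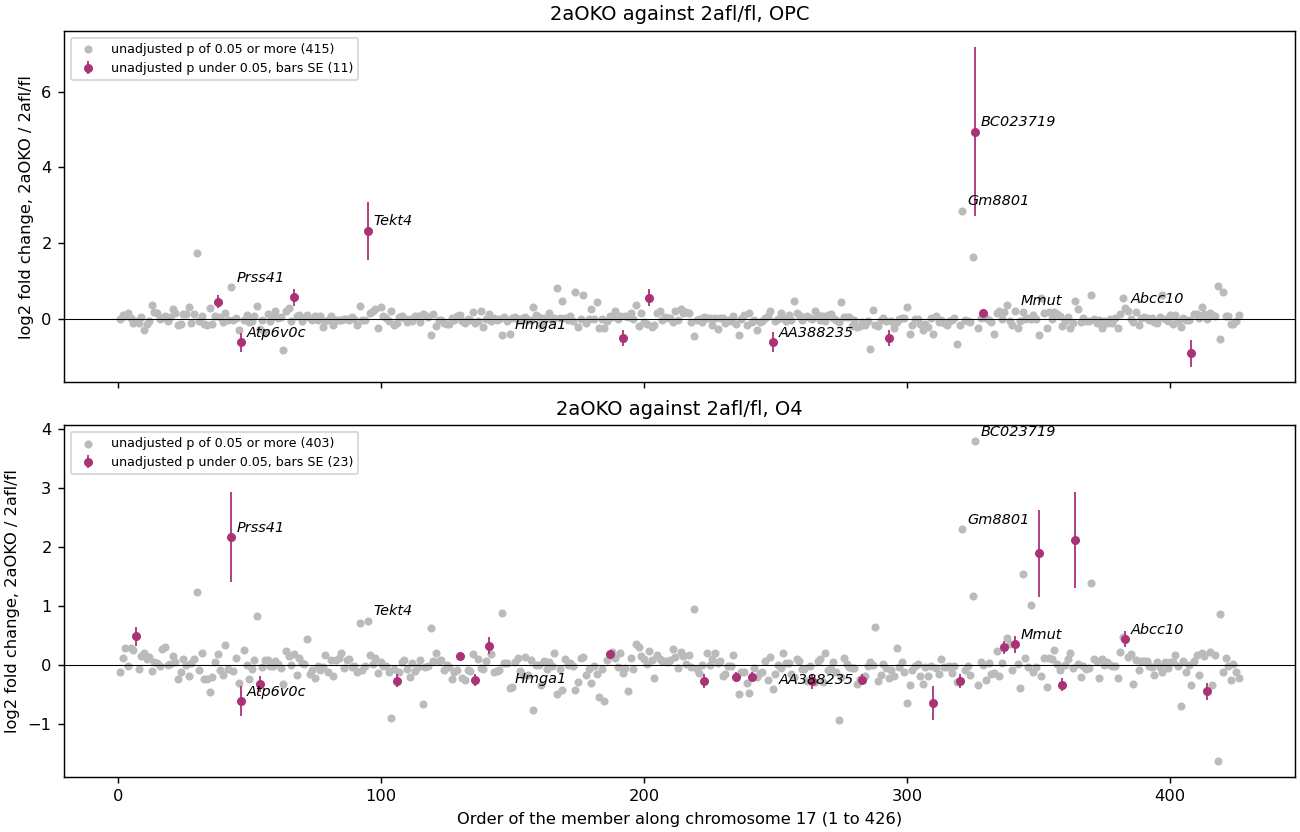
Log2 fold change of 2aOKO over 2afl/fl for each of the 426 members in order along chromosome 17, in OPC (top) and O4 libraries (bottom). Members with an unadjusted p under 0.05 are coloured with SE bars, 11 in OPCs and 23 in O4 cells, and none passes after adjustment.

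Members with the smallest p in OPCs were mostly of low or moderate level. Tekt4, a tektin of cilia and flagella, had 8.51, 0 and 3.16 in 2afl/fl and 27.6, 28.6, 3.58 and 20.7 in 2aOKO OPC libraries, which overlap (2.32 ± 0.77, adjusted p = 1). Nthl1, a DNA glycosylase, had 67.1, 58.3 and 83.2 against 77.7, 98.1, 104 and 138 (0.57 ± 0.22, adjusted p = 1). Cbs had 94.5, 82.8 and 74.8 against 135, 121, 133 and 107, with no overlap (0.56 ± 0.23, adjusted p = 1). In O4 libraries, where 2afl/fl had 255, 347 and 201 and 2aOKO 214, 272, 344 and 432, Cbs overlapped. Ly6g5b, a small protein of the Ly6 family encoded in the class III stretch, had 295, 294 and 211 against 169, 197, 147 and 238. Gm20517, a transcript model that overlaps Usp49 and Med20, had 189, 206 and 159 against 81.1, 99.4, 60.3 and 183. Trim26, a ubiquitin ligase, differed by 0.16 ± 0.07, Gm6402 by -0.51 ± 0.21 and 9530082P21Rik by 0.45 ± 0.17.

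In O4 libraries Frs3, an adaptor of growth factor receptors, had 511, 452 and 528 in 2afl/fl and 376, 298, 427 and 360 in 2aOKO mice. The groups did not overlap, at -0.45 ± 0.15 (adjusted p = 0.999). Supt3, a subunit of the SAGA complex, had 559, 455 and 476 against 390, 357, 397 and 424, also without overlap (-0.34 ± 0.11, adjusted p = 0.999). Zfp52 had 132, 181 and 145 against 205, 215, 219 and 205 in O4, but 189, 164 and 169 against 184, 181, 170 and 133 in OPC libraries. Its difference between sorts was 0.54 ± 0.23 (adjusted p = 1), the smallest p of a member in that test. Daxx, a histone chaperone, differed by -0.20 ± 0.07 in O4 cells, Bnip1, a SNARE of the endoplasmic reticulum, by -0.26 ± 0.10, and Lsm2, a subunit of spliceosomal particles, by -0.25 ± 0.10. Prss41 and Tcte1 were below 40 in every library. Cfb, complement factor B, had 62.4, 62.2 and 16.6 against 30.8, 24, 19.3 and 12.3 in O4 libraries. The groups overlapped (-0.94 ± 0.50, adjusted p = 0.999), and the value was -0.63 without 2afl/fl library 2. In the list of 18 immune members 1 value was above 0 in O4 cells (median -0.21), against 9 of 18 in OPCs (median -0.03), and none passed. Of all 426 members, 192 were above 0 in O4 cells and 209 in OPCs. Summed microglia markers had medians of 10572 in 2afl/fl and 9163 in 2aOKO O4 libraries, and of 4195 and 3958 in OPC libraries. The genotypes overlapped in both sorts, and the part of microglial RNA in these values was not tested. Members of the list of early and stress response genes were at medians of -0.18 in OPCs and -0.26 in O4 cells. Of the 13, 0 and 2 were above 0, and none passed. Not all of the list are early genes, since it holds the adaptor Frs3, whose -0.45 in O4 cells is among these values. The summed level of 9 early genes outside the stretch lay the same way, with a median of 85811 in 2afl/fl and 70369 in 2aOKO OPC libraries, and of 67706 and 51623 in O4 libraries. The ranges of the genotypes overlapped in both sorts, and the part of this shift in the members' values was not tested.

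Several of the members with the smallest p over both sorts had values that set the 2aOKO libraries numbered 2 and 3 apart from the other 2aOKO libraries, in OPC and O4 alike. These libraries were noticed first, and the stretch was proposed with results of these data in view. The shares below thus describe the values and are not tests. Every single number and every pair of the 7 numbers was taken in turn among genes with a mean of at least 50. A gene was counted when the libraries of those numbers lay above or below all others of their sort by at least 0.1 on the log2 scale, in both sorts. For the pair of 2aOKO numbers 2 and 3 this held for 12 of 377 members, 3.18%, against 0.277% of all 13697 genes. Of the 12, BC023719 and Gm8801 reached the mean of 50 only through these libraries and so had to differ. With that mean taken over the libraries of the other numbers, a filter chosen after seeing the data, it held for 10 of 375 members, 2.67%, against 36 of 13714 genes, 0.263%. For the pair of 2aOKO 3 and 2afl/fl 3 it held for 11 members, 2.92%, against 2.51% of all genes. No other of the 21 pairs had more than 6 members. The pair of 2afl/fl 1 and 2 had 6, 1.59% against 0.82% of all genes. That of 2aOKO 3 and 4 had 2, 0.53% against 0.09%, and that of 2aOKO 1 and 2afl/fl 1 had 0, against 1.23%. Shares above that of all genes were thus not limited to 2aOKO 2 and 3. Among single numbers, 2afl/fl 2 set 15 members apart, 3.98% against 5.48% of all genes, 2afl/fl 1 set 10 apart, 2.65% against 4.22%, and 2aOKO 3 set 9 apart, 2.39% against 2.26%, which are near or below the shares of all genes. Of the 38 genes that 2aOKO 2 and 3 set apart in the whole table, 18 lie in the stretch of chromosome described here. The 6 that are not members are Rps2, Rps28, Rps18, H2-T23, H2-T22 and H2-T10. H2-T10 was high and the other 5 low. The other 20 genes lie on 13 chromosomes with at most 3 on any one, and 2 of them, Khsrp and Gpatch11, are on chromosome 17 past the stretch. They also include Atp6v0c-ps2, Hmga1b and Rps18-ps4, which were high, while Atp6v0c, Hmga1 and Rps18 in the stretch were low. The sequences of Rps18 and Rps18-ps4 were not compared.

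**Figure D3:**
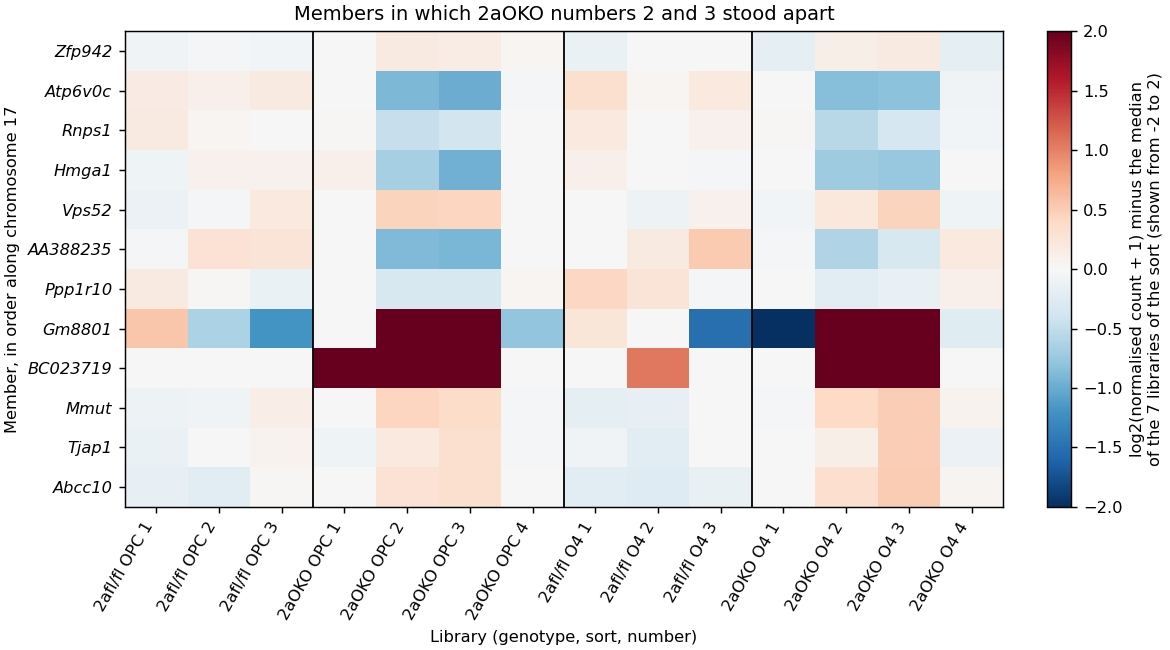
Log2(normalised count + 1) of the 12 members in each of the 14 libraries, as the difference from the median of the 7 libraries of the sort (colour, shown from -2 to 2). In the 2aOKO columns numbered 2 and 3 of both sorts, 7 members are high and 5 low. BC023719 also had 7.41 in 2aOKO OPC library 1.

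In order along the chromosome these members are Zfp942, Atp6v0c, Rnps1, Hmga1, Vps52, AA388235, Ppp1r10, Gm8801, BC023719, Mmut, Tjap1 and Abcc10. The first starts at 22145944 and the last at 46614146, so they span most of the stretch. The strongest were both noncoding gene models of the class I part. BC023719 (plus strand, chr17:36422289-36427984) was at 0 in 8 libraries and at 1.07 in 2afl/fl O4 library 2 and 7.41 in 2aOKO OPC library 1. In 2aOKO OPC libraries 2 and 3 it was at 314 and 336, and in the O4 libraries of these numbers at 272 and 356. It overlaps H2-T10 on the opposite strand, and its transcript is 96.4% identical to that of A930015D03Rik. Gm8801 (chr17:36258046-36264210) was at 1.15 to 10.5 in 10 libraries, at 342 and 222 in 2aOKO OPC libraries 2 and 3, and at 292 and 314 in the corresponding O4 libraries. Both genes reached the mean of 10 only through these 4 libraries. The genotype values were 4.94 ± 2.23 and 3.79 ± 2.23 for BC023719 in OPCs and O4 cells, and 2.85 ± 1.76 and 2.30 ± 1.76 for Gm8801, with no adjusted p under 0.05. Without the 2aOKO libraries 2 and 3 these values were 1.54 and -0.35 for BC023719 and 0.03 and -0.78 for Gm8801. The study lists Gm8801 as differing between genotypes in both sorts.

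The genes next to these did not all share the pattern. Abcf1, a regulator of translation initiation next to Gm8801, was at 2968 to 3534 in OPC and 3489 to 4241 in O4 libraries, with 3107, 3193, 3939 and 3798 in the 2aOKO libraries 2 and 3. Prr3 was at 1221 to 1493 and Gnl1, a GTPase, at 2100 to 2932 over all libraries. On the other side of Gm8801 lies Ppp1r10, a targeting subunit of protein phosphatase 1, which is among the 12. It had 3574, 3596, 3426 and 3615 in these 4 libraries and 3916 to 5298 in the others.

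Atp6v0c (minus strand, chr17:24382839-24388653) had 7924, 7574 and 8064 in 2afl/fl OPC libraries, and 7083, 3790, 3569 and 6931 in 2aOKO OPC libraries 1 to 4. In O4 libraries it had 10736, 8785 and 9808, and 8568, 4766, 4845 and 8121. The groups did not overlap in either sort, but the 2aOKO libraries 1 and 4 lay just under the 2afl/fl values, and 2 and 3 far lower. The genotype value on the log2 scale was -0.63 ± 0.25 in OPCs and -0.63 ± 0.18 over both sorts (limma, adjusted p = 0.954). Without the 2aOKO libraries 2 and 3 the latter was -0.19 ± 0.07.

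The pseudogene copy moved the other way. Atp6v0c-ps2 was at 7406, 8158, 9520 and 11074 in the 2aOKO libraries 2 and 3, and at 4534 to 6742 in the other 10 libraries. Atp6v0c made up 57.5% to 63.7% of the sum of the pair in those 10 libraries and 30.4% to 33.9% in these 4. The deviations of both genes from their group means had an r of -0.89 over 14 libraries. The sum was at 12934, 12752 and 12654 in 2afl/fl OPC libraries and at 12313, 11196, 11727 and 11465 in 2aOKO OPC libraries, which do not overlap. In O4 libraries, at 14603 to 17479 and 13202 to 15919, the genotypes overlapped. The sum differed between genotypes by -0.13 ± 0.08 in OPCs and -0.15 ± 0.08 in O4 cells (adjusted p = 1 and 0.999).

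Hmga1 and Hmga1b were apart in the same way. Hmga1 was at 1106, 902, 1120 and 1087 in the 2aOKO libraries 2 and 3 and at 1653 to 1972 in the others. Hmga1b was at 2380, 2378, 2389 and 2422, against 1317 to 1883. The sum was at 3069 to 3855 in all libraries, with genotype differences of 0.00 ± 0.06 and -0.08 ± 0.06, and r between the pair was -0.95. Hmga1 made up 50.1% to 57.1% of the sum in 10 libraries and 27.5% to 31.9% in these 4.

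**Figure D4:**
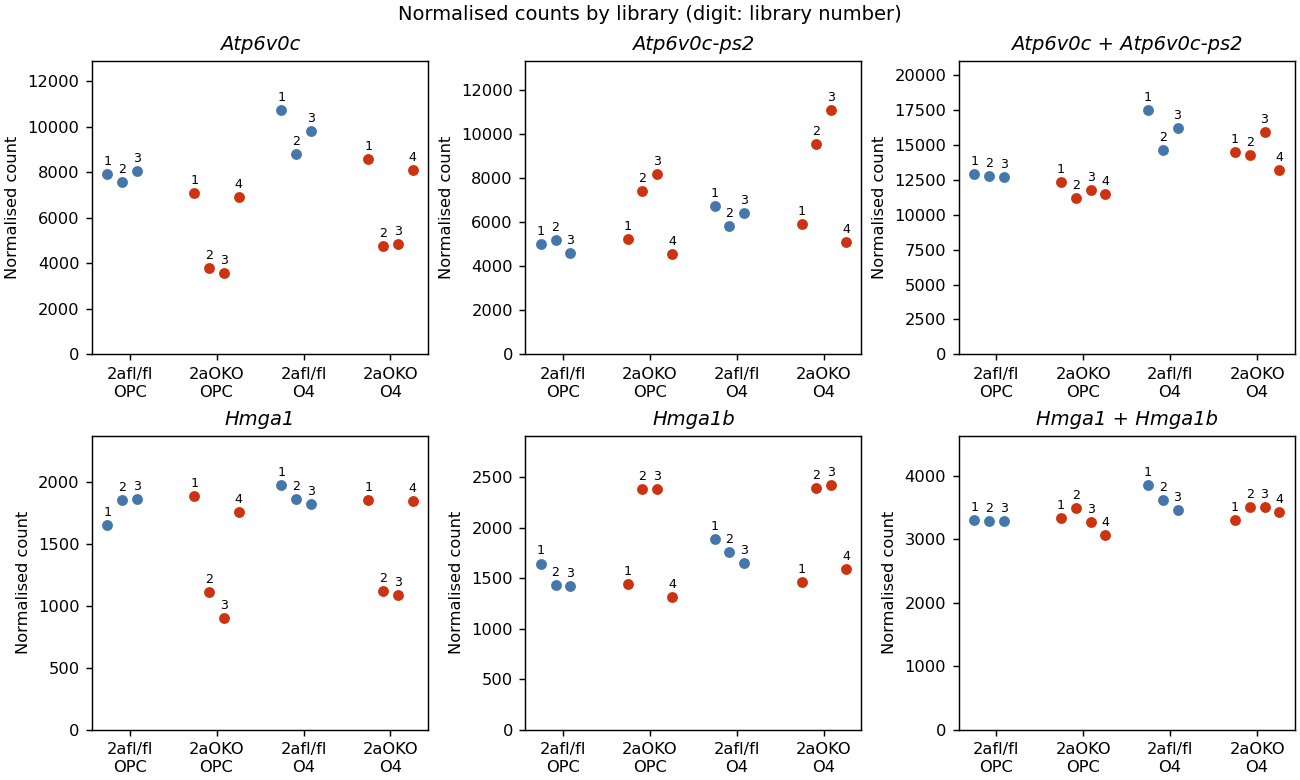
Normalised counts of Atp6v0c and Hmga1, of their near-identical copies on chromosomes 6 and 11, and of each sum, in every library (points with the library number, blue 2afl/fl and red 2aOKO). Numbers 2 and 3 of 2aOKO are low for the member and high for the copy in both sorts, while the Hmga1 sums lie between 3069 and 3855 and the Atp6v0c sums between 11196 and 17479.

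The remaining members of this kind had no near-identical copy in the search. Rnps1, a component of the exon junction complex, had 3105, 3333, 3081 and 3577 in the 2aOKO libraries 2 and 3, against 4262 to 5202 in the others. AA388235 had 171, 167, 216 and 261, against 312 to 470. Vps52, a subunit of the GARP tethering complex close to AA388235, had 3434, 3401, 3339 and 3907, against 2329 to 3045. Mmut, mitochondrial methylmalonyl-CoA mutase, had 1732, 1653, 2085 and 2246. Its other libraries were at 1193 to 1406 in OPC and 1400 to 1670 in O4. Abcc10, a drug transporter of the ABC family, had 918 and 941 in OPC and 961 and 1078 in O4 libraries of these numbers, against 638 to 759 and 632 to 790. Tjap1, a tight junction protein close to Abcc10, had 2296, 2496, 2597 and 3374. Zfp942 had 834, 819, 767 and 801, against 615 to 763.

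The smallest p of a member over both sorts was that of Abcc10, at 0.36 ± 0.09 (limma, adjusted p = 0.954). Without the 2aOKO libraries 2 and 3 it was 0.18 ± 0.08. Values without these libraries were -0.09 ± 0.07 for Rnps1 (-0.30 ± 0.10 with them), -0.16 ± 0.13 for AA388235 (-0.52 ± 0.18) and 0.07 ± 0.08 for Mmut (0.28 ± 0.10). Supt3 moved little, from -0.27 ± 0.08 to -0.24 ± 0.10. Over both sorts, 13 members had an unadjusted p under 0.05 without these libraries, 3.05% against 1.77% of all genes, and 7 of them were among the 40 with all libraries. In OPCs there were 3, 0.704% against 0.687%, and in O4 cells 6, 1.41% against 1.27%. These fits keep 2 libraries in each 2aOKO group. The labels do not say what these libraries share, and what sets them apart was not tested.

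Other members varied from number to number in the same way in both sorts. By a rule of r of at least 0.8 over the 7 pairs of same-numbered OPC and O4 libraries and an SD of pair means of at least 0.25, 29 members were patterned, 6.81% against 5.99% of all genes tested. The share is thus close to the background. Neighbours along the chromosome were not alike as a rule, since the median r of a member and the next one was 0.07 over 425 pairs, against 0.08 for all genes.

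Some early response genes of the stretch varied together. Ier3, induced by growth factors and stress, had 1030, 1459 and 685 in 2afl/fl and 776, 722, 664 and 918 in 2aOKO OPC libraries. In O4 libraries it had 1110, 1403 and 547, and 694, 537, 473 and 767, so 2afl/fl libraries 1 and 2 were the highest in both sorts, and 2afl/fl library 3 lay within the 2aOKO range. Its genotype value was -0.64 ± 0.29 in O4 cells (adjusted p = 0.999), and -0.36 without 2afl/fl O4 library 2. Pim1, a survival kinase, had 808, 718 and 371 against 665, 476, 452 and 465 in OPC libraries, and 653, 708 and 274 against 472, 326, 265 and 348 in O4 libraries, where its genotype value was -0.54, or -0.29 without 2afl/fl library 2. Dusp1, a phosphatase of MAP kinases, was at 2136 to 4420, and Cdkn1a, the inhibitor p21, at 463 to 1117 over all libraries. Their deviations followed those of Ier3 with r of 0.83 for Pim1, 0.83 for Cdkn1a and 0.75 for Dusp1. Against the summed level of 9 early genes outside the stretch, r was 0.91 for Ier3, 0.90 for Pim1, 0.86 for Dusp1, 0.85 for Cdkn1a and 0.65 for Sik1, a salt-inducible kinase. Of the other members of the list of 13, Tnfrsf12a had an r of 0.70, Tnf 0.69, Srf 0.67 and Angptl4 0.56, while Vegfa was at -0.30, Nfkbie at -0.37, Brd2 at -0.40 and Frs3 at -0.57. That sum ran from 59917 to 94005 in OPC and from 39891 to 82360 in O4 libraries.

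Some genes known from vessels also varied together. Adgrf5, an adhesion receptor of endothelium, had 3377, 3358 and 2174 in 2afl/fl and 3464, 3713, 2206 and 3217 in 2aOKO OPC libraries. In O4 libraries it had 2909, 4330 and 2366, and 3541, 3301, 1943 and 2904. The libraries numbered 3 were the lowest of both genotypes in each sort. Notch4, the endothelial Notch receptor, and Kank3, an adaptor of the cytoskeleton, were likewise lowest in number 3, with r of 0.95 between Notch4 and Adgrf5 and 0.96 between Notch4 and Kank3. Tmem204, a claudin-like protein of vessels, was at 192 in OPC library 3 of both genotypes and at 141 and 191 in O4 library 3. The others were at 261 to 384. Angptl4, an inhibitor of lipoprotein lipase, had 234 and 248 in 2aOKO libraries 3, its lowest values. Against the summed endothelial markers, r was 0.99 for Adgrf5, 0.99 for Kank3, 0.97 for Notch4, 0.97 for Tmem204 and 0.90 for Angptl4. Not all members of the vessel list followed that sum. Clic5 had an r of 0.78, Egfl8 0.72, Slc29a1 0.67, Tnxb 0.57 and Notch3 0.53, while Ager was at -0.20, Rcan2 at -0.27 and Vegfa at -0.34, and Tmem204 is not on the list. In all, 12 members had an r of at least 0.8 with that sum, 2.82% against 3.71% of all genes, and 22 with the sum of oligodendrocyte markers, 5.16% against 5.88%. For the sum of early genes there were 12, 2.82% against 3.01%. The members thus followed these 3 sums no more often than other genes. For the sum of microglia markers there were 4, 0.939% against 0.366%.

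**Figure D5:**
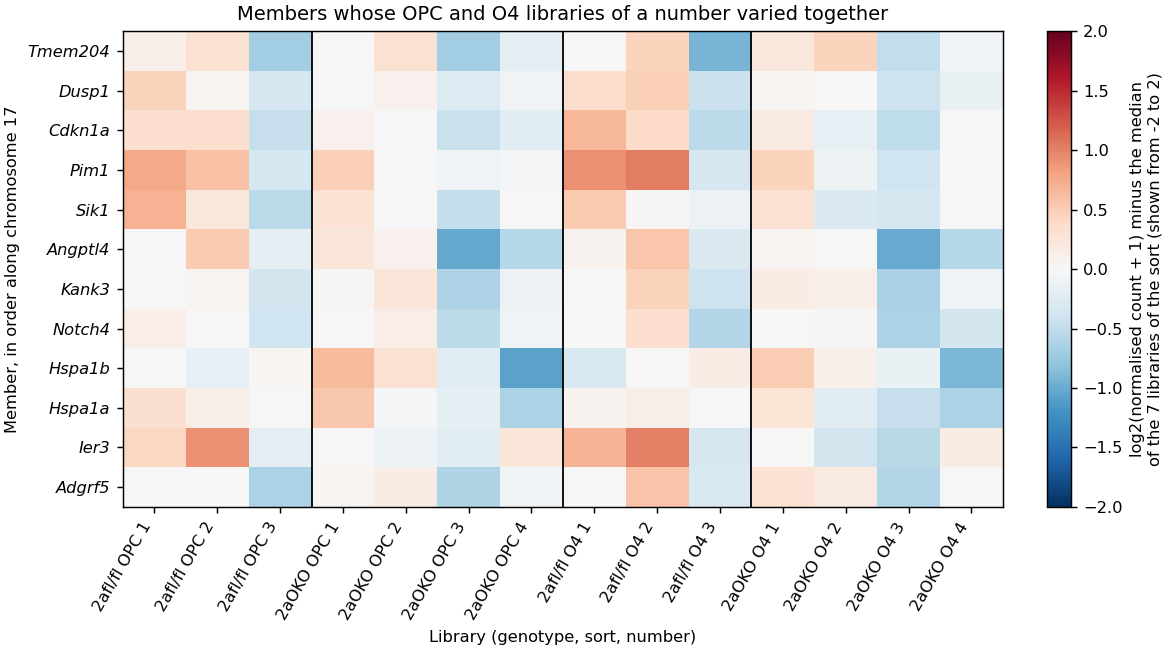
Log2(normalised count + 1) of 12 members in each of the 14 libraries, as the difference from the median of the 7 libraries of the sort (colour, shown from -2 to 2). Adgrf5 and Kank3 are low in number 3 of both genotypes, and Hspa1a and Hspa1b are low in 2aOKO number 4. Ier3 and Pim1 are high in 2afl/fl numbers 1 and 2, and Pim1 is also high in 2aOKO number 1.

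The inducible Hsp70 genes had an order of their own. Hspa1b had 752, 669 and 772 in 2afl/fl and 1166, 925, 651 and 359 in 2aOKO OPC libraries, and 590, 739, 817, 1052, 789, 674 and 390 in the O4 libraries in the same order. Hspa1a had 901, 776 and 718, and 1049, 710, 635 and 461 in OPC, and 768, 790 and 727, and 878, 629, 530 and 469 in O4 libraries. The 2aOKO library 1 was the highest and 4 the lowest for both genes in both sorts, and the deviations of the pair had an r of 0.88. The 2aOKO range thus enclosed the 2afl/fl range, and the genotype values of Hspa1b were -0.04 ± 0.34 and -0.05 ± 0.34. The transcripts of the pair were 99.2% identical, and the part of shared reads in this likeness was not tested.

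Last, the ribosomal RNA models Rn45s and Rn18s overlap on the same strand past Mog, so reads may fit both. Rn18s had 20249 to 32016 in 13 libraries and 76740 in 2aOKO O4 library 2. Rn45s had 4594, 3824 and 4577 in 2afl/fl and 4936, 5968, 5388 and 4980 in 2aOKO O4 libraries, with no overlap (0.30 ± 0.11, adjusted p = 0.999). In OPC libraries, at 4007, 3374 and 4546 against 4580, 4142, 5106 and 4109, the genotypes overlapped.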

How the data were processed

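RNA from 14 libraries was sequenced by the study. According to the labels and methods, the authors aligned reads with STAR 2.7.8a to mm39 and quantified and normalised them in Partek Flow 10. The deposited table holds a signal, estimated counts scaled between libraries by median ratios, which are not whole and not scaled for gene length. Raw depth is thus unknown, and normalised totals were 34120823 to 41030171. A further 3 deposited tables hold the authors' own tests (p-values, fold changes, group means) and were not used.

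Values were taken as log2(normalised count + 1). The 15565 genes that reached a mean of 10 were fitted with limma 3.58.1 (trend, R 4.3.3) over 4 groups, with Benjamini-Hochberg adjustment over all genes tested and a threshold of 0.05. A fold change on this scale understates that of low genes. Where nothing says that libraries come from separate mice, p-values measure the spread between these libraries. Same-numbered OPC and O4 libraries deviated together (r from 0.160 to 0.328, each highest with its own number). Some fits therefore took equal numbers of a genotype as pairs, although the labels do not say what they share. The main fit did not use this pairing, so its SEs and p-values for genotype over both sorts are likely too small. The fit was tested on simulated data. Copies were sought with blastn 2.17.0 among GENCODE transcripts of the genes tested, on the same strand and over at least 30% of the shorter transcript.

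The members, role lists and tests were chosen with earlier results of these data known. Named were, by rule, members with the smallest p per comparison (the 10 smallest for genotype, up to 10 per direction among sort calls), those that varied most by number, up to 5 per list, those the study lists, and those at the limits. Genes apart in 2aOKO 2 and 3, and their neighbours and copies, were named after their values were seen. Alternatives were other pseudocounts (0.5 and 5), filters, scalings, a block on number, smaller fits and each library left out.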

Additional observations from a re-analysis of the deposited data

Results flagged for a closer look

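In groups of 4 libraries, 47 named members (94 groups) were checked for a library far from the other 3 by Dixon's ratio, which chance exceeds in about 1 of 20 groups, and 4 groups exceeded it. 1700071M16Rik was at 30.7 in 2aOKO OPC library 1 and at 5.17, 7.72 and 8.94 in the others. Pim1 was at 665 in 2aOKO OPC library 1 and at 452, 465 and 476 in the others. Gm28043, which shares its sequence with the overlapping Cmtr1 and Rnf8, was at 390.3 in 2aOKO O4 library 2 and at 524, 526 and 534 in the others. Treml4 was at 17.1 in 2aOKO O4 library 1 and at 2.27, 3.07 and 3.27 in the others.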

How the results depend on the processing

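No member passed the adjusted threshold between genotypes under any alternative (0 to 0 with each library left out). The looser limits of the study (log2 fold change of 0.32 or more in size, unadjusted p under 0.05) were applied to the limma fit. They counted 10 members in OPCs, 12 in O4 cells, 15 over both sorts (3.52% against 1.59% of all genes) and 3 for the difference (0.704% against 0.752%). Between sorts, leaving out each library gave 50 to 142 members in 2afl/fl and 94 to 138 in 2aOKO mice, and the fit to the libraries of the comparison gave 17 in 2afl/fl mice. The stricter limits on the number pattern (r of at least 0.9, SD of at least 0.5) left 2 members, Gm8801 and BC023719. Both reached the mean of 10 only through the 2aOKO libraries 2 and 3, so they had to vary by number. The share of all genes under these limits is not given. Without the 2aOKO libraries 2 and 3, chosen after seeing the data, the genotype value was 0.03 for Hmga1 in OPCs and, in O4 cells, -0.78 for Gm8801 and -0.35 for BC023719, each with the sign turned. Of the 36 genotype values of the 12 members apart in these libraries, in OPCs, O4 cells and over both sorts, 11 values of 7 members turned. The others were -0.38 for Gm8801 and -0.03 for Zfp942 over both sorts, -0.14 for Zfp942 in O4 cells, -0.0017 for Mmut and -0.04 for Tjap1 in OPCs, and -0.03, -0.06 and -0.05 for Vps52 in OPCs, in O4 cells and over both sorts. The cause was not tested. Over all alternatives to the 131 named values, 2956 values kept direction and side of the threshold, 28 came to pass it, 55 no longer passed and 3 turned. With the replicate block the sort comparisons called 131 members in 2afl/fl (30.8% against 33.6% of all genes) and 152 in 2aOKO mice (35.7% against 39.5%), and with the block as a random effect 141 (33.1% against 35.5%) and 159 (37.3% against 41.1%). Among the named values the fixed block brought Sox8 and Ddr1 in 2afl/fl and Ddr1 and Abca3 in 2aOKO mice past the threshold and changed no other call. Between genotypes the labels do not tie equal numbers, and r was 0.066 to 0.299, not above 0.1 for number 2. All libraries but those of number 2 in O4 correlated best with their own number, a hint from the data and not the design. That block left 0 adjusted calls. At an unadjusted p under 0.05 it gave 32 members in OPCs (7.51% against 3.26% of all genes), 47 in O4 cells (11% against 5.69%), 63 over both sorts (14.8% against 7.53%) and 3 for the difference (0.704% against 1.35%). Raw depth is unknown, so no counting interval is given.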
